A study of Mus musculus with 9 samples.

Results

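Platelet-derived growth factors (PDGF) and fibroblast growth factors (FGF) are secreted ligands that act through receptor tyrosine kinases on the surface of mesenchymal cells. The 10 genes described here are the receptor genes Pdgfra, Pdgfrb and Fgfr1, the PDGF ligand genes Pdgfa, Pdgfb, Pdgfc and Pdgfd, and the FGF ligand genes Fgf2, Fgf7 and Fgf10. They were taken by gene symbol from the 19094 genes listed in at least 1 sample, and each symbol was found once. RNA-seq was performed on 3T3-L1 cells, a mouse embryonic fibroblast line that can be turned into lipid-storing adipocytes in culture, with 3 samples at day 0, 3 at day 4 and 3 at day 8. Day 0 cells were preadipocytes that had not received the induction medium. Day 4 cells had spent 2 days with dexamethasone, IBMX and insulin and 2 days with insulin alone, and day 8 cells had 4 further days with insulin. All samples came from one cell line without a genetic change, and none of the 9 was kept without induction to day 4 or day 8. Time in culture, exposure to dexamethasone, IBMX and insulin in the medium, and differentiation therefore cannot be told apart. The cells of a stage were pooled before RNA extraction, and nothing in the sources says that the 3 samples of a day were separate cultures, so the p-values measure only the spread between these samples, which may be technical.

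In mesenchymal cells the PDGF receptors bind dimers of PDGF chains, with PDGFRα taking up A, B and C chains and PDGFRβ mainly B and D chains. FGF2 acts through several FGF receptors, whereas FGF7 and FGF10 act chiefly through the epithelial splice form of FGFR2. Both receptor classes feed the RAS to ERK and PI3K cascades, and PDGFRα marks fat cell progenitors in adipose tissue.

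The samples held between 18216114 and 20452144 expected counts, which are the reads assigned to genes by the authors' quantification. A count of 3 in a sample, used as the detection floor, equals 0.147 to 0.165 CPM (counts scaled to the sample's total), and this floor covers counting error only. Levels are given as the deposited FPKM (fragments scaled to transcript length and to the depth of the sample), which lets genes be set side by side. Changes are log2 fold changes ± standard error (SE) from edgeR on the counts of all 9 samples. A gene is said to have risen or fallen at an adjusted p under 0.05, and to be differentially expressed when the change was also more than 2-fold. The comparison of day 4 with day 0 is called the early phase, day 8 with day 4 the late phase, and day 8 with day 0 the whole process. Each pair of these comparisons shares the 3 samples of one day.

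The sample labels name all 9 samples adipocytes, and the marker genes bore this out for day 4 and day 8 only. The adipocyte marker genes summed to 144.2 to 149.1 FPKM on day 0, 6162 to 8835 on day 4 and 9150 to 9968 on day 8, and Adipoq, which encodes adiponectin, was at 0.503 ± 0.194 FPKM at day 0 against 466.6 ± 93.5 on day 4 and 819.8 ± 59.6 on day 8 (SD, n = 3). All 10 adipocyte markers were differentially expressed upward in the early phase and in the whole process, where 9.77% and 10.3% of all genes tested were. A preparation step for dorsal root ganglia also stands in the labels. The 11 neuron and glia markers summed to 1.90 to 2.46 FPKM in every sample, with the neuronal markers Rbfox3 and Scn10a at or below 0.0233 FPKM in the mean of each day. Snap25, of the same list, had means of 0.0267, 1.12 and 1.10 FPKM on days 0, 4 and 8. The endothelial markers summed to 0.22 to 0.57 FPKM, with Pecam1 the one that passed the filter (0.13, 0.133 and 0.257 FPKM on days 0, 4 and 8), and of the leukocyte list Ptprc and Adgre1 stayed at or below 0.0167 FPKM in the mean of each day. Other genes of that list were measurable, with means on days 0, 4 and 8 of 4.48, 3.13 and 2.70 FPKM for Cd14, 1.80, 0.40 and 0.93 for Lyz2, and 1.32, 1.30 and 1.49 for Cd68. Lyz2 fell by 2.10 on the log2 scale in the early phase (adjusted p = 2.10e-05).

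The receptors were the most abundant of the 10 genes at every stage, and Fgfr1 led on all 3 days. By mean FPKM the order at day 0 was Fgfr1, Pdgfrb, Pdgfra, Fgf7, Pdgfa, Pdgfc, Fgf10, Fgf2, Pdgfb and Pdgfd. At day 4 Pdgfra stood above Pdgfrb, and Fgf7 had moved below Fgf10 and Pdgfc. At day 8 Pdgfrb was again above Pdgfra, and Fgf10 was the most abundant of the ligands. Among neighbours in these orders that had counts, the samples of Fgf2 and Pdgfb overlapped at day 0, and the samples of all other neighbours were separated. Pdgfd (gene ID 71785) had 1 count in the third day 8 sample and had no entry in the files of the other 8 samples, which was taken as 0, so it was below the floor and did not pass the filter on low counts. The other 9 genes passed.

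**Figure D1:**
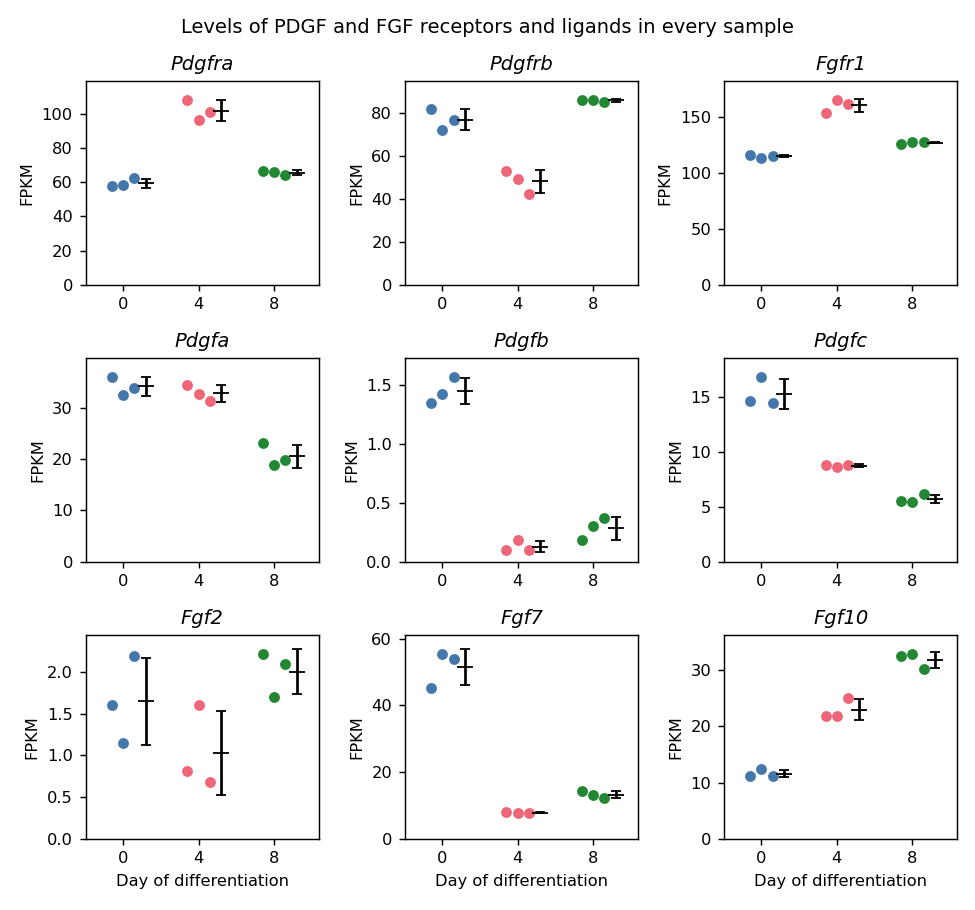
FPKM (vertical axes, linear, each from 0) of 9 PDGF and FGF genes by day of differentiation (horizontal axes). Points are the 3 samples of a day, and black marks with bars are the mean ± SD. Pdgfra and Fgfr1 are highest at day 4 and Pdgfrb is lowest there, Fgf7 and Pdgfb are highest at day 0, and Fgf10 is highest at day 8.

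Fgf7 and Fgf10, close relatives that share a receptor, moved in opposite directions from day 0 to day 8, and Pdgfra was the PDGF receptor gene that peaked at day 4. For these genes, the 250 bases before the transcript start are given from RefSeq (GRCm38.p6). Capitals mark the single match to one of the motifs searched, the C/EBP letters TTGCNNAA in Pdgfra, which begin 118 bases before the start.
Pdgfra, chr5:75152001-75152250, plus strand: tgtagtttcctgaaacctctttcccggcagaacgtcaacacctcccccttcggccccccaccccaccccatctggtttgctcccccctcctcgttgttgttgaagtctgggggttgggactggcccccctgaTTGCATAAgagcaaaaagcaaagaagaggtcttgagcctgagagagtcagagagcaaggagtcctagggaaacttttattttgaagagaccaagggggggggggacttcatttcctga
Fgf7, chr2:126034408-126034657, plus strand: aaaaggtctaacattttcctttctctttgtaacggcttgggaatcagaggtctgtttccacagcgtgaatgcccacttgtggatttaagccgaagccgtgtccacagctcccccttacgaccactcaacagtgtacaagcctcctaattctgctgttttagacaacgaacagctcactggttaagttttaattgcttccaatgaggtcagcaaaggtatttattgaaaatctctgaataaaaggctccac
Fgf10, chr13:118714449-118714698, plus strand: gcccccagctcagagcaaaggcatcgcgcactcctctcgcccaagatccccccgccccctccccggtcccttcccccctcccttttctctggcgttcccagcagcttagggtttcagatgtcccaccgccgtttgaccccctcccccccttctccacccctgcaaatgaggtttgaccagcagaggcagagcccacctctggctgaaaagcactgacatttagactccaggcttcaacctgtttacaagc
The table held such a window for 7 of the 10 genes. Each window was searched on both strands for 6 motifs, and the share of 32851 mouse promoter windows of the same length that hold each one is given as background. The AP-1 letters TGANTCA occurred in 6.75% of them and the cAMP response element TGACGTCA in 1.55%. The C/EBP letters occurred in 9.56%, and the half-site of the glucocorticoid receptor, AGAACA, in 16.1%. The TEAD letters GGAATG were in 12.6% and the TATA box, TATAAA, in 12.4%. None of these motifs contains another. No other match was found in the Pdgfra window and none in those of Fgf7, Fgf10, Fgf2 and Pdgfa, which says only that these letters are not in these windows. Pdgfc had 1 match to the TEAD letters and Pdgfd 1 to the TATA box. The GC content was 54.4% for Pdgfra, 43.6% for Fgf7 and 61.2% for Fgf10, against a median of 52.4% over all windows.

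The early phase showed a fall of Fgf7 and Pdgfb, a rise of Fgf10 and Pdgfra, and opposite changes of both PDGF receptor genes. Of the 9 genes tested, 3 were differentially expressed, namely Fgf10 upward and Fgf7 and Pdgfb downward, where 17.8% of all 13154 genes tested were. Of all genes, 9.77% passed this rule upward and 7.98% downward. At an adjusted p under 0.05 alone, 3 had risen and 4 had fallen, where 35.5% of all genes rose and 33.7% fell, so that 7 of 9 was near the background of 69.2%. In the late phase 5 rose and 4 fell, where 22.5% of all genes rose and 22.7% fell (45.3% together). Of the 9 genes only Pdgfb passed 2-fold, upward, where 7.05% of all genes did (4.24% upward and 2.81% downward). Over the whole process 4 rose and 4 fell, where 34.8% of all genes rose and 36.2% fell (71.0% together). Differentially expressed were 4, namely Fgf10 upward and Fgf7, Pdgfb and Pdgfc downward, where 18.0% of all genes were (10.3% upward and 7.70% downward). For the 9 genes the median change (log2) was -0.61 in the early phase, 0.52 in the late phase and 0.25 over the whole process, beside 0.02, -0.01 and -0.02 over all genes. The FPKM values of the 3 and 3 samples did not overlap for 7, 8 and 8 of the 9 genes in the early phase, the late phase and the whole process, where 71.6%, 54.6% and 76.4% of all genes showed this.

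**Figure D2:**
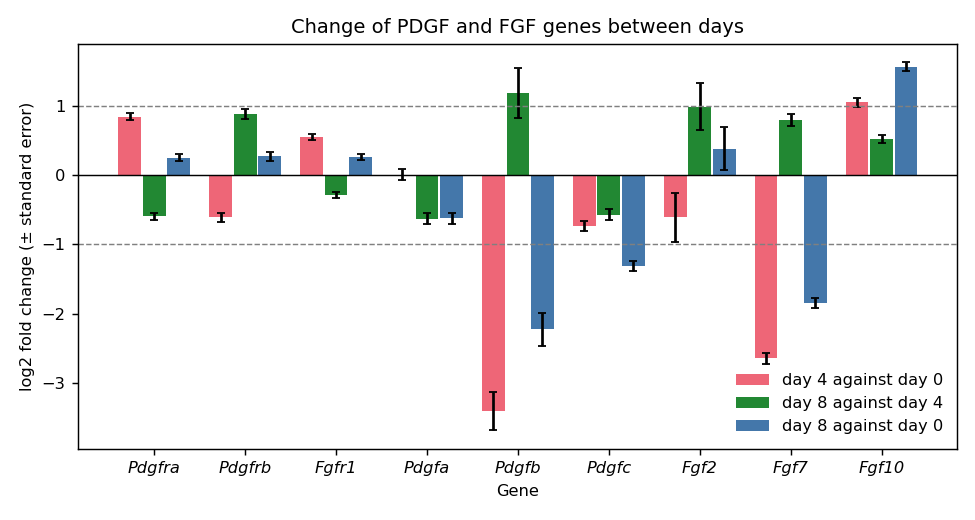
Log2 fold change (vertical axis, bars with ± SE) of the 9 tested genes (horizontal axis) in each comparison from edgeR on all 9 samples, with dashed lines at 2-fold. Fgf7 and Pdgfb fell by more than 2-fold to day 4, Fgf10 exceeded 2-fold at day 4 and day 8, and none of the 3 receptor genes passed 2-fold in any comparison.

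Among the receptors, Pdgfra (gene ID 18595) encodes PDGFRα. Its FPKM was 57.63, 58.58 and 62.64 in the day 0 samples, 108.66, 96.5 and 101.13 at day 4 and 66.92, 65.97 and 64.14 at day 8. All day 4 samples stood above every other sample, and the day 8 samples were all slightly above day 0. The estimated log2 fold change equalled 0.84 ± 0.05 in the early phase (adjusted p = 4.34e-10), -0.59 ± 0.05 in the late phase (adjusted p = 1.21e-07) and 0.25 ± 0.05 over the whole process (adjusted p = 0.000393). The rise to day 4 was thus 1.79-fold. The difference over the whole process was smaller, at 0.14, with library size alone as the scaling or with limma on FPKM. In bulk RNA a smaller share of cells with a transcript and less of that transcript per cell cannot be told apart, for this gene and those that follow.

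Pdgfrb (gene ID 18596), which encodes PDGFRβ, a receptor typical of mural cells and fibroblasts, had its lowest level at day 4. The FPKM was 81.69, 72.04 and 76.92 at day 0, 52.86, 49.08 and 42.45 at day 4, and 86.3, 86.28 and 85.28 at day 8. No day 4 sample reached the level of a day 0 or day 8 sample. Pdgfrb fell by 0.61 ± 0.07 on the log2 scale in the early phase (adjusted p = 8.77e-07) and rose by 0.88 ± 0.07 in the late phase (adjusted p = 3.77e-08), ending 0.27 ± 0.07 above day 0 (adjusted p = 0.0021). This last difference was 0.16 with library size alone as the scaling, and 0.16 with limma on log2(FPKM + 1) or log2(FPKM + 0.1), where it did not pass (adjusted p = 0.0575 and 0.0569). Acta2, the smooth muscle actin gene and another mural cell marker, averaged 300.9 ± 36.2, 47.5 ± 11.3 and 79.4 ± 7.51 FPKM on days 0, 4 and 8. Of the 5 mural and smooth muscle markers tested, 3 were differentially expressed downward and 1 (Myh11, a smooth muscle myosin) upward in the early phase (7.98% and 9.77% of all genes). None was in the late phase, in which 4 rose at an adjusted p under 0.05 (22.5% of all genes). Over the whole process 2 were differentially expressed upward and 2 downward (10.3% and 7.70% of all genes). The 2 upward were Myh11 and Des, and Des had means of 3.74, 4.51 and 8.23 FPKM on days 0, 4 and 8. The summed FPKM of that list, mostly from Acta2, was 296.5, 365.1 and 301.7 in the day 0 samples, 67.7, 60.7 and 44.8 at day 4 and 103.9, 93.2 and 88.8 at day 8. Cspg4 and Rgs5, which mark pericytes, stayed at or below 0.09 FPKM in the mean of each day. The part of this list in the Pdgfrb levels was not tested.

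The sum of both PDGF receptors changed less than their make-up. On days 0, 4 and 8 the sum was 136.5 ± 5.09, 150.2 ± 9.83 and 151.6 ± 1.97 FPKM (SD, n = 3). All day 0 sums (130.6 to 139.6) lay below those of day 4 (143.6 to 161.5) and day 8 (149.4 to 153.2), which overlapped each other. Pdgfrb made up 58.6, 55.2 and 55.1% of this sum in the day 0 samples, 32.7, 33.7 and 29.6% at day 4, and 56.3, 56.7 and 57.1% at day 8. The day 4 samples were separated from both other days, which overlapped each other. The share differed by -24.3 percentage points in the early phase and 24.7 points in the late phase, each with p = 0.1 in a two-sided exact permutation test, the smallest p that 3 against 3 samples allow, and 0.15 after adjustment over the 3 comparisons. Over the whole process the share differed by 0.388 points (exact permutation p = 1), beside SDs of 2.02 points at day 0 and 0.375 at day 8.

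Fgfr1 (gene ID 14182), the main FGF receptor gene of fibroblasts, was highest at day 4, and its largest estimated change between days was smaller than that of each of the other 8 genes tested. Its FPKM was 115.43, 113.52 and 115.33 at day 0, 153.81, 165.41 and 161.51 at day 4, and 126.05, 127.19 and 127.16 at day 8. Every day 4 sample was above every day 8 sample, and every day 8 sample was above day 0. The estimated log2 fold change equalled 0.55 ± 0.04 in the early phase (adjusted p = 1.54e-08), -0.29 ± 0.04 in the late phase (adjusted p = 6.98e-05) and 0.26 ± 0.04 over the whole process (adjusted p = 7.21e-05). Over the whole process it was 0.15 with library size alone as the scaling and 0.14 with limma on FPKM.

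**Figure D3:**
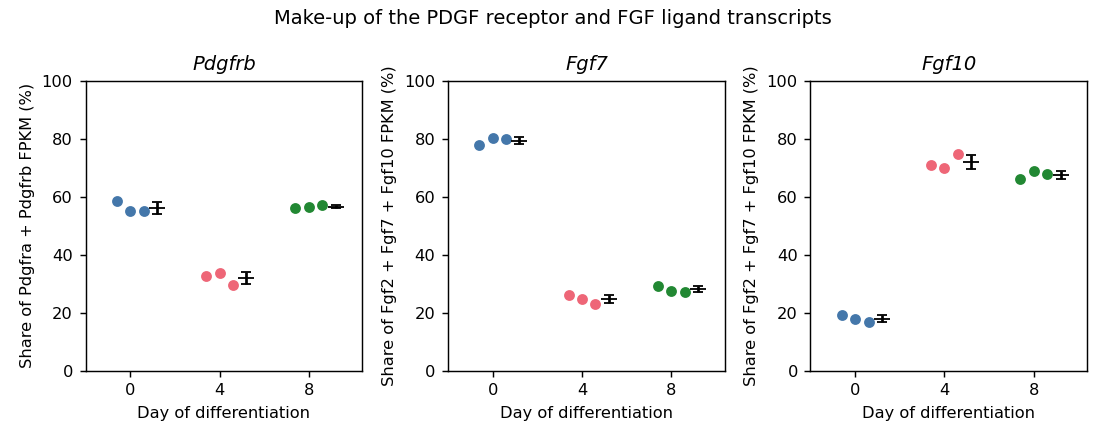
Share in percent (vertical axes, 0 to 100) of Pdgfrb in the summed FPKM of Pdgfra and Pdgfrb, and of Fgf7 and Fgf10 in the summed FPKM of Fgf2, Fgf7 and Fgf10, by day (horizontal axes). Points are samples and black marks are the mean ± SD (n = 3). Pdgfrb drops from 56.3 to 32.0% at day 4 and is at 56.7% at day 8, while Fgf7 and Fgf10 change places between day 0 and day 4 and stay so at day 8.

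Among the PDGF ligands, Pdgfa had the highest deposited FPKM on every day. Pdgfa (gene ID 18590) encodes the A chain, a ligand of PDGFRα. Its FPKM was 36.02, 32.44 and 33.84 at day 0, 34.48, 32.58 and 31.27 at day 4 and 23.1, 18.78 and 19.72 at day 8. The samples of day 0 and day 4 overlapped, and all day 8 samples were lower. The early change was 0.01 ± 0.07 on the log2 scale (adjusted p = 0.923), with a sign that depended on the scaling, and Pdgfa fell by 0.63 ± 0.08 in the late phase (adjusted p = 6.83e-06) and by 0.62 ± 0.08 over the whole process (adjusted p = 2.51e-06). Of the 50-base stretches in the GENCODE transcripts of Pdgfa, 21.3% also occur on the opposite strand in transcripts of 6330403L08Rik. The sources do not say that counting used strand, so reads of both genes cannot be told apart there. Whether these stretches lie in the transcript used for counting was not checked. The files list Pdgfa with a transcript of 1019 bases, whereas the longest GENCODE transcript has 2060, so its FPKM, rank and share among the ligands are uncertain.

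Pdgfc (gene ID 54635), a second PDGFRα ligand that is secreted in a latent form, fell in both phases. The FPKM was 14.63, 16.88 and 14.43 at day 0, 8.84, 8.61 and 8.84 at day 4, and 5.58, 5.41 and 6.17 at day 8, and the days did not overlap. Pdgfc fell by 0.74 ± 0.07 on the log2 scale in the early phase (adjusted p = 8.90e-08), by 0.57 ± 0.08 in the late phase (adjusted p = 1.31e-05) and by 1.31 ± 0.07 over the whole process (adjusted p = 1.18e-10), a level 2.47-fold lower at day 8 than at day 0.

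Pdgfb (gene ID 18591), whose product binds both PDGF receptors, was the least abundant PDGF ligand with usable counts. The 3 samples held 82, 77 and 95 expected counts at day 0, 6, 11 and 6 at day 4, and 11, 18 and 22 at day 8. These correspond to 1.35, 1.42 and 1.57 FPKM at day 0, 0.1, 0.18 and 0.1 at day 4, and 0.18, 0.3 and 0.37 at day 8. All day 0 samples were far above the others, while day 4 and day 8 overlapped by FPKM. Pdgfb fell by 3.41 ± 0.28 on the log2 scale in the early phase (adjusted p = 1.51e-08), a 10.6-fold lower level, and by 2.22 ± 0.24 over the whole process (adjusted p = 4.13e-07). The early change was -1.12 with limma on log2(FPKM + 1) and -2.79 on log2(FPKM + 0.1). In the same order the whole-process change was -0.93, which is under 2-fold, and -2.04. The late change was 0.19 and 0.74 with these tests, both under 2-fold. The late change of 1.18 ± 0.36 (adjusted p = 0.0144) rested on these few counts, and it was 1.03 (adjusted p = 0.0527) without day 4 replicate 1 and 0.96 (adjusted p = 0.0703) without day 8 replicate 3.

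Summed over Pdgfa, Pdgfb and Pdgfc, PDGF ligand transcripts came to 50.9 ± 1.08, 41.7 ± 1.63 and 26.5 ± 2.20 FPKM on days 0, 4 and 8 (SD, n = 3), with no overlap between days. On the same days Pdgfa made up 67.0 ± 2.77%, 78.6 ± 0.827% and 77.3 ± 2.53% of this sum. The share of Pdgfc was 30.1 ± 2.76%, 21.1 ± 0.839% and 21.6 ± 2.12%, and that of Pdgfb 2.85 ± 0.280%, 0.305 ± 0.113% and 1.09 ± 0.411%. The summed receptor FPKM was thus above the summed ligand FPKM on every day, and the lowest receptor sum in any sample (130.6 FPKM) exceeded the highest ligand sum (52 FPKM).

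Among the FGF ligands, Fgf7 and Fgf10 changed places. Fgf7 (gene ID 14178) encodes a mesenchymal factor also known as keratinocyte growth factor. Its FPKM was 45.23, 55.49 and 53.76 at day 0, 8.08, 7.75 and 7.78 at day 4 and 14.36, 13.19 and 12.15 at day 8. The day 0 samples were separated from all others by a wide gap, and the day 8 samples stood above day 4. Fgf7 fell by 2.64 ± 0.08 on the log2 scale in the early phase (adjusted p = 4.95e-14), a 6.24-fold lower level. It rose by 0.79 ± 0.08 in the late phase (adjusted p = 9.40e-07) and remained 3.60-fold below day 0 at day 8, a log2 fold change of -1.85 ± 0.07 (adjusted p = 1.74e-12).

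Fgf10 (gene ID 14165), a mesenchymal factor known for its role in white adipose tissue development, rose in both phases. The FPKM was 11.21, 12.34 and 11.25 at day 0, 21.86, 21.91 and 25.06 at day 4, and 32.43, 32.91 and 30.16 at day 8, and the days did not overlap. The estimated log2 fold change equalled 1.05 ± 0.06 in the early phase (adjusted p = 1.72e-10), 0.52 ± 0.06 in the late phase (adjusted p = 1.69e-06) and 1.57 ± 0.06 over the whole process (adjusted p = 1.09e-12), so that day 8 was 2.97-fold above day 0. The early change lay close to the 2-fold threshold, and it was 0.99 without day 4 replicate 3 and 0.98 with library size alone as the scaling.

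Fgf2 (gene ID 14173), basic fibroblast growth factor, was low throughout. The samples held 22, 14 and 30 expected counts at day 0, 11, 22 and 9 at day 4, and 30, 23 and 28 at day 8, or 1.61, 1.15 and 2.19 FPKM, then 0.81, 1.61 and 0.68, then 2.22, 1.7 and 2.1. Day 0 overlapped both other days, and the day 4 samples all lay below the day 8 samples. The estimated log2 fold change equalled -0.61 ± 0.35 in the early phase (adjusted p = 0.136), 0.99 ± 0.34 in the late phase (adjusted p = 0.026) and 0.38 ± 0.31 over the whole process (adjusted p = 0.284). Day 4 replicate 2 held the most counts of its day, and without it the early change was -1.09 (adjusted p = 0.0211). The late rise no longer passed without day 4 replicate 1 (adjusted p = 0.0897), day 4 replicate 3 (0.0979), day 8 replicate 1 (0.0776) or day 8 replicate 3 (0.0639). The files list Fgf2 with a transcript of 695 bases, whereas the longest GENCODE transcript has 5973, so its level is uncertain. Of the stretches in its GENCODE transcripts 7.88% occur on the opposite strand in Nudt6. Whether these lie in the transcript used for counting was not checked.

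The 3 FGF ligands summed to 64.7 ± 5.86, 31.8 ± 1.47 and 47.1 ± 2.38 FPKM on days 0, 4 and 8 (SD, n = 3). In this order Fgf7 made up 79.5 ± 1.35%, 24.8 ± 1.53% and 28.1 ± 1.06% of the sum. Fgf10 made up 18.0 ± 1.29%, 72.0 ± 2.47% and 67.6 ± 1.36%. The share of Fgf2 was 2.57 ± 0.816%, 3.27 ± 1.65% and 4.27 ± 0.627%, and its differences between days had exact permutation p-values of 0.7, 0.4 and 0.1 (0.7, 0.6 and 0.3 after adjustment over the 3 comparisons). With 3 against 3 samples no p under 0.1 can be reached, and the day 0 shares (1.67 to 3.26%) all lay below those of day 8 (3.56 to 4.73%), while day 4 overlapped both. The early and late differences in the Fgf2 share were 0.704 and 1.00 points, but -0.0267 and 0.183 points with CPM in place of FPKM. The whole-process difference was also smaller with CPM, which is not per length, so points by CPM and by FPKM are on unlike scales.

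Fgfr2, Fgfr3, Fgfrl1 and Klb rose to day 4. Of 7 further receptor and co-receptor genes, 5 could be tested, and 4 of them were differentially expressed upward in the early phase, 1 in the late phase and 4 over the whole process, where 9.77%, 4.24% and 10.3% of all genes were. Their median change was 1.47 (log2) in the early phase and 0.11 in the late phase. Fgfr2, which encodes the receptor used by FGF7 and FGF10, had 15.83, 16.37 and 16.67 FPKM at day 0, 41.77, 37.99 and 37.66 at day 4, and 22.31, 23.02 and 22.15 at day 8. All day 4 samples were highest, with log2 values for the change of 1.33 ± 0.05 in the early phase (adjusted p = 1.19e-12) and -0.76 ± 0.05 in the late phase (adjusted p = 4.24e-09). These gene-level values do not say which splice form of Fgfr2 was present.

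Fgfrl1, a receptor-like gene without a kinase domain, went from 41.9 ± 2.28 to 111.6 ± 6.74 and then 116.7 ± 3.01 FPKM, a log2 rise of 1.47 ± 0.06 in the early phase (adjusted p = 1.44e-12). At day 8 its samples (113.36, 117.64 and 119.17 FPKM) lay just below those of Fgfr1. Fgfr3 rose from 1.39 ± 0.127 to 5.64 ± 0.276 FPKM, by 2.07 ± 0.09 on the log2 scale (adjusted p = 4.19e-12), and its late change was 0.10 ± 0.07 (adjusted p = 0.278). Klb encodes β-Klotho, the co-receptor for FGF21. It held 2, 0 and 4 expected counts at day 0, 112, 147 and 139 at day 4 and 449, 530 and 537 at day 8, and the late rise was 1.97 ± 0.13 on the log2 scale (adjusted p = 4.41e-09). Pdgfrl, which encodes a secreted PDGF receptor-like protein, went from 25.5 ± 1.78 to 42.2 ± 8.57 and 51.8 ± 2.43 FPKM, a log2 rise of 1.13 ± 0.11 over the whole process (adjusted p = 8.47e-08). Fgfr4 held 0 to 4 expected counts per sample, and it and Kl did not pass the filter.

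**Figure D4:**
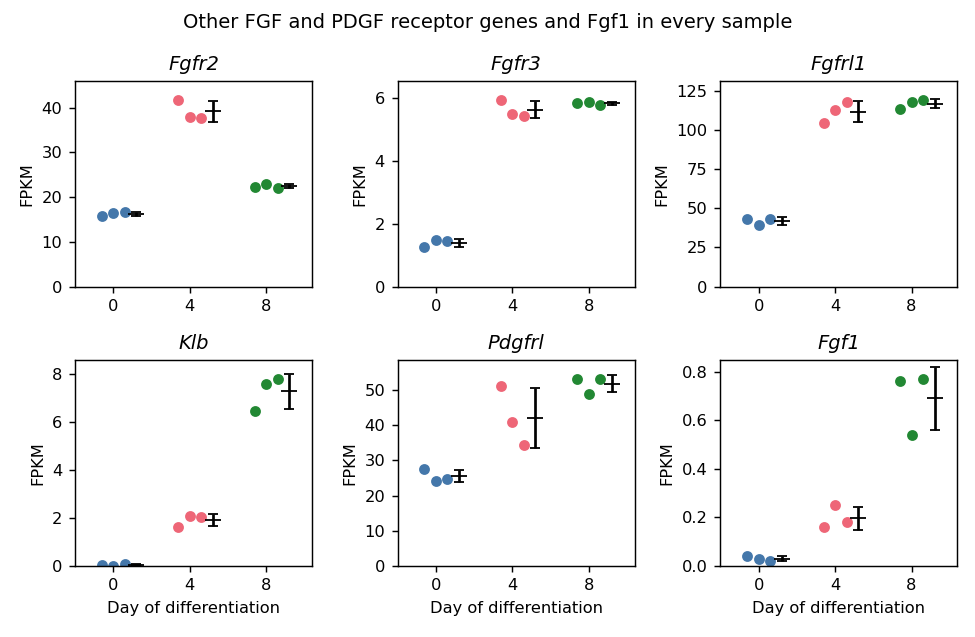
FPKM (vertical axes, linear, each from 0) of 5 further FGF or PDGF receptor genes and of Fgf1 by day (horizontal axes). Points are the 3 samples of a day and black marks are the mean ± SD. Fgfr2 is highest at day 4, Fgfr3 and Fgfrl1 are high at both later days, and Klb, Pdgfrl and Fgf1 have their highest means at day 8.

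Almost no other FGF ligand was measurable. Of 19 further FGF genes, 16 were listed and 1 passed the filter. This was Fgf1, acidic fibroblast growth factor, with 3, 2 and 2 expected counts at day 0, 13, 20 and 14 at day 4 and 60, 43 and 60 at day 8, a rise in both phases (adjusted p = 6.04e-05 and 1.72e-05). Even at day 8 it stood at 0.69 ± 0.13 FPKM. Fgf21, a metabolic hormone of the family, held 14, 4 and 6 counts at day 0, 1, 2 and 1 at day 4 and 8, 7 and 7 at day 8, and did not pass the filter.

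Genes that prepare or hold the ligands were described from 2 lists. Of 6 genes for PDGF processing and its inhibitors that could be tested, 3 rose and 3 fell in the early phase (35.5% and 33.7% of all genes), and Plau and Serpine2 passed 2-fold downward (7.98% of all genes). Plau (urokinase, a serine protease) went from 3.66 ± 0.511 FPKM to 0.797 ± 0.085 and 1.63 ± 0.394, and Serpine2 (protease nexin-1, a protease inhibitor) from 247.1 ± 7.28 to 77.2 ± 7.63 and 117.7 ± 1.40. Furin, a convertase of PDGF chains, was highest at day 4, at 55.3 ± 3.18 FPKM against 35.7 ± 1.26 at day 0 and 33.1 ± 1.31 at day 8. Of 19 heparan sulfate and FGF-binding genes tested, 7 rose and 9 fell in the early phase, where 35.5% and 33.7% of all genes did. The 3 past 2-fold all fell, where 7.98% of all genes fell so far, namely Hs6st2 (a heparan sulfate sulfotransferase), Sdc3 (syndecan-3) and Gpc6 (glypican-6). Sdc3 went from 47.6 ± 3.21 to 14.8 ± 1.55 FPKM by day 4 and was back at 42.3 ± 3.80 on day 8, and Hs6st2 from 6.55 ± 0.377 to 1.49 ± 0.135 and 3.46 ± 0.193. Over the whole process none of the 19 passed 2-fold (18.0% of all genes), while 7 rose and 7 fell (34.8% and 36.2% of all genes).

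Most genes of the cascade below the receptors changed by less than 2-fold. Of 31 adaptor and kinase genes tested, 13 rose and 11 fell in the early phase, where 35.5% of all genes rose and 33.7% fell. The median log2 fold change of the list was 0.02, as over all genes, and 1 gene passed 2-fold, where 17.8% of all genes did. This was Pik3r1, which encodes the p85α subunit of PI3K, with 18.96, 16.98 and 18.87 FPKM at day 0, 57.08, 53.9 and 59.92 at day 4, and 26.22, 25.95 and 24.42 at day 8. All day 4 samples were highest, with log2 fold changes of 1.70 ± 0.06 (adjusted p = 1.63e-13) and -1.11 ± 0.05 (adjusted p = 1.45e-10) in both phases.

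Of 16 genes listed as feedback regulators of these receptors, 5 rose and 11 fell in the early phase, where 35.5% of all genes rose and 33.7% fell. Past 2-fold were 2 upward and 2 downward (9.77% and 7.98% of all genes), and the list's median was -0.42 on the log2 scale. In the late phase 9 rose, 3 of them past 2-fold, and 3 fell, with a median of 0.50, where 22.5% of all genes rose, 4.24% past 2-fold, and 22.7% fell. Spry4 (a Sprouty protein) rose from 3.39, 4.46 and 4.3 FPKM to 19.27, 20.06 and 22.62 by day 4 and 27.58, 30.46 and 29.37 by day 8. Dusp5, a nuclear ERK phosphatase, moved the other way, from 20.01, 24.34 and 25.98 FPKM to 3.7, 3.53 and 3.48, then 7.11, 6.53 and 7.73. In both genes the days did not overlap, and the early log2 fold changes were 2.42 ± 0.09 (adjusted p = 5.43e-13) and -2.64 ± 0.12 (adjusted p = 7.19e-12). Spry2, another Sprouty gene, was lowest at day 4, with 7.80 ± 0.529 FPKM against 16.2 ± 1.21 at day 0 and 20.4 ± 0.550 at day 8, and Dusp4, a further ERK phosphatase, rose from 3.83 ± 0.677 to 8.14 ± 0.677 and 17.8 ± 1.00. The members of this list therefore did not share a direction. The list also holds Flrt1, Flrt2 and Flrt3, membrane partners of FGF receptors that are not inhibitors, and all 3 were among the 11 that fell in the early phase.

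Early target genes of growth factors were mostly lower after day 0. Of 18 tested, 2 rose and 12 fell in the early phase, where 35.5% of all genes rose and 33.7% fell. Past 2-fold were 2 upward and 7 downward (9.77% and 7.98% of all genes), and the median log2 fold change was -0.54. Etv4, an ETS factor downstream of FGF receptors, fell from 6.33 ± 0.937 to 0.933 ± 0.163 FPKM, Egr3 from 8.89 ± 1.41 to 1.95 ± 0.717 and Ier3 from 43.7 ± 6.98 to 10.5 ± 1.78. The 2 that rose were Fos and Fosb, subunits of AP-1, whose day 4 levels varied widely between samples (119.5 ± 60.3 and 25.6 ± 16.6 FPKM, SD, n = 3). In the late phase 6 genes of the list rose and 4 fell (22.5% and 22.7% of all genes), with 4 past 2-fold upward and 2 downward (4.24% and 2.81%). Fosl1, another AP-1 subunit, rose from 9.62 ± 3.33 to 47.9 ± 4.01 FPKM, a log2 fold change of 2.36 ± 0.20 (adjusted p = 1.04e-07). The 2 downward were Fosb, which fell by 3.33 ± 0.42 on the log2 scale to 2.46 ± 0.491 FPKM (adjusted p = 8.18e-06), and Fos, which fell by 1.75 ± 0.27 to 34.4 ± 4.31 FPKM (adjusted p = 6.18e-05). Over the whole process 2 rose and 11 fell (34.8% and 36.2% of all genes), with 1 past 2-fold upward and 5 downward (10.3% and 7.70%). The 12 mitosis genes moved with the early phase as well, since all 12 fell at an adjusted p under 0.05, 3 of them past 2-fold, where 33.7% of all genes fell and 7.98% past 2-fold. They summed to 156.2, 216.3 and 156.5 FPKM in the day 0 samples, 92.9 to 100 at day 4 and 98.5 to 108.7 at day 8, with Cdc20 the most abundant at day 0. The part of cell division in the levels of the growth factor genes was not tested. Of the 10 preadipocyte markers 9 also fell in the early phase (33.7% of all genes), among them Dlk1 (827.6 ± 33.6, 180.8 ± 13.9 and 415.3 ± 5.57 FPKM on days 0, 4 and 8), Ly6a and Cd44 past 2-fold (7.98% of all genes). In the late phase 4 of the 10 rose, 1 of them past 2-fold, and 2 fell (22.5%, 4.24% and 22.7% of all genes). Over the whole process 2 rose and 6 fell, 3 of these past 2-fold (34.8%, 36.2% and 7.70% of all genes). The 2 that rose were Col1a1 and Col1a2, by 0.67 ± 0.05 and 0.57 ± 0.06 on the log2 scale (edgeR adjusted p = 6.11e-09 and 3.48e-07). Thy1 differed by 0.01 ± 0.05 (adjusted p = 0.851).

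**Figure D5:**
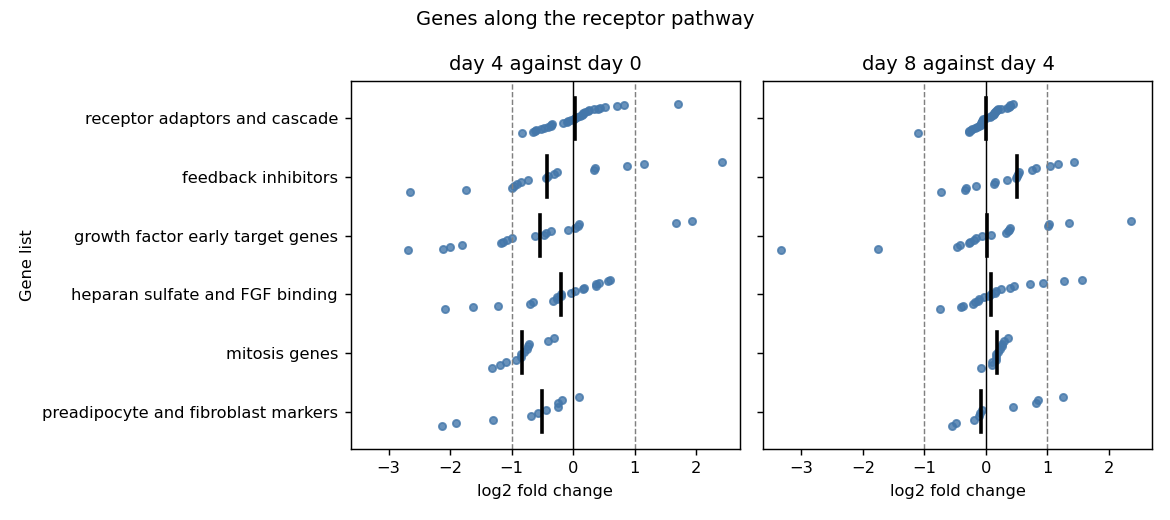
Log2 fold change (horizontal axes) of each tested gene in 6 lists (vertical axis) in the early phase (left) and the late phase (right). Points are genes, black bars are list medians and dashed lines mark 2-fold. Of the cascade genes only Pik3r1 lies past 2-fold, the mitosis genes lie left of 0 in the early phase, and the genes listed as feedback inhibitors spread to both sides.

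The genes most like each of the 9 in their course were found by Pearson correlation of log2 CPM over the 9 samples. The search covered 2193 genes with an average log2 CPM of 1 or more and day means that differed by at least 2-fold. Genes that changed less were not searched, although Pdgfra, Pdgfrb, Fgfr1 and Pdgfa themselves did not pass 2-fold. The 9 samples fall into 3 days, so such a correlation mostly compares 3 levels and is a description only. Fgf7 was most like Hgf, hepatocyte growth factor, another mesenchymal ligand (r = 0.998, with means of 8.37, 1.48 and 2.46 FPKM on days 0, 4 and 8), followed by Nkain1 and Phldb2. Fgf10 was most like Mpc2, a subunit of the mitochondrial pyruvate carrier (r = 0.998, with 29.0, 65.7 and 96.2 FPKM), followed by 5730508B09Rik and Adrb3, the β3-adrenergic receptor gene of adipocytes. Pdgfra was most like Gas6, the ligand of the TAM receptors (r = 0.992, with 126.6, 527.1 and 167.4 FPKM), then Gdpd2 and Porcn, the latter needed for Wnt secretion. For Pdgfrb these were Zbtb7c, Sema7a and the clock gene Per3, and for Fgfr1 Phldb1, Mocs1 and Ccdc71l. Pdgfc was most like the thiamine transporter gene Slc19a2 (r = 0.999), then Prex2 and Naf1, Pdgfb like Fhdc1, Zfp7 and Lurap1l, and Pdgfa like Gm10638, Leng8 and Mnda. The closest genes to Fgf2, Zfp41, Spats2l and Sema7a, reached 0.861 or less.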

How the data were processed

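RNA-seq of 3T3-L1 cells was analysed in 9 samples, grouped by the day in the sample titles (n = 3 per day). The authors removed poor reads, mapped with HISAT/Bowtie2 and quantified with RSEM, and the submitters' processing notes also name CASAVA 1.4. The genome build and the strand setting are not given in the sources used here, and the labels and the paper name different sequencing platforms. The deposited expected counts are RSEM estimates per gene without normalization, and 29.8% are not whole. FPKM, as deposited, had been scaled to effective length and depth. The transcript length deposited beside them was read only to compare with GENCODE vM21.

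Expected counts were rounded, filtered with filterByExpr, scaled with TMM factors and tested with edgeR 4.0.16 (quasi-likelihood F-test, R 4.3.3) in one model of all days, with Benjamini-Hochberg adjustment over all 13154 genes. The SE is the log2 fold change divided by the square root of F. Shares were tested by exact permutation. The steps were tested on simulated data. The alternatives were other scalings, filters and tests (DESeq2 1.42.0, edgeR's exact test, limma 3.58.1 on log2(FPKM + 1) and log2(FPKM + 0.1)), separate models per pair of days, a replicate block, CPM in place of FPKM for the shares, and each sample left out. Named genes were all 10 genes, the 3 most changed differentially expressed genes of each list (average log2 CPM 1 or more), receptors and ligands needed as background, and the 3 most alike genes. Furin, Pdgfrl, Kl, Flrt1, Flrt2, Flrt3, Cspg4, Rgs5, Des, Cdc20, Col1a1, Col1a2, Thy1 and the endothelial, leukocyte and neuronal markers outside this rule were added after their values were seen. Some genes of the lists are not reported here. The genes and lists were chosen with earlier results of these data known. Replicates of a day differed by more than sampling noise, so none was counted as a duplicate.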

Additional observations from a re-analysis of the deposited data

How the results depend on the processing

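The number of the 9 genes differentially expressed, 3 in the early phase and 4 in the whole process, stayed within 1.5 times under every scaling, filter and test tried, while that of the late phase (1) was 2 with RLE factors and with DESeq2, where Fgf2 joined Pdgfb, and 0 with limma on log2(FPKM + 1), on log2(FPKM + 0.1) and with at least 10 counts in every sample, a filter that Pdgfb and Fgf2 did not pass. Leaving out 1 sample gave 2 to 4 genes in the early phase, 0 to 2 in the late phase and 4 over the whole process. The early change of Pdgfa (0.01) was -0.0402 with upper-quartile factors, -0.0569 with library size alone, and -0.0553 and -0.0568 with limma at a pseudocount of 1 and 0.1, and it ranged from -0.0303 to 0.0520 when 1 sample was left out. The whole-process difference in the Pdgfrb share ranged from -0.204 to 1.56 points when 1 sample was left out, being below 0 without day 0 replicate 2 (-0.186) or 3. The early difference in the Fgf2 share was -0.0267 points with CPM and ranged from -0.235 (without day 4 replicate 2) to 1.32 when 1 sample was left out, and the late and whole-process differences (1.00 and 1.71) were 0.183 and 0.156 points with CPM, which is not per length. CPM gives more weight to longer transcripts, and the listed lengths are 695 bases for Fgf2, 2672 for Fgf7 and 4572 for Fgf10. Points by CPM and by FPKM are thus on unlike scales. The cause of the changes in these differences was not tested. Fgf10 in the early phase was under 2-fold with limma (0.92 and 0.98), as was Pdgfb in the late phase (0.19 and 0.74) and, at a pseudocount of 1, over the whole process (-0.93, and -2.04 at 0.1). The rise of Pdgfrb over the whole process had an adjusted p of 0.0575 and 0.0569 with limma at a pseudocount of 1 and 0.1. Library size alone moved the median of all genes over the whole process from -0.02 to -0.13. The few counts of Pdgfb, Fgf2, Fgf1, Fgf21, Fgfr4 and Pdgfd limit what can be said of them.

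With a replicate block, 3, 1 and 4 of the genes were differentially expressed in the early phase, the late phase and the whole process, and 2340, 923 and 2370 of all genes against 2335, 928 and 2369 without it. Samples with the same number did not deviate together, with a mean correlation of 0.0307 (-0.0348 to 0.0750), so the numbers were not taken as pairs. The mean for different numbers (-0.0154) is no separate comparison. It follows from the first, since the deviations from the mean of a day sum to 0.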

Other observations

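Ligands of related receptor kinases were also measured. Of 10 genes tested among those for the KIT, CSF1, FLT3 and VEGF receptors and their ligands, 2 were differentially expressed downward in the early phase, 1 upward and 1 downward in the late phase, and 1 upward and 2 downward over the whole process. Of all genes tested, 7.98% were so downward in the early phase, 4.24% upward and 2.81% downward in the late phase, and 10.3% upward and 7.70% downward over the whole process. Csf1, the macrophage growth factor, went from 103.9 ± 1.29 FPKM at day 0 to 32.5 ± 3.01 at day 4 and 38.9 ± 0.662 at day 8 (SD, n = 3), an early log2 fold change of -1.59 ± 0.06 (edgeR adjusted p = 4.42e-13). Kitl, the ligand of KIT, was at 29.2 ± 0.206, 42.1 ± 3.29 and 14.6 ± 0.368 FPKM, and its late change was -1.48 ± 0.05 (adjusted p = 3.80e-12). Over the whole process Vegfa, the main angiogenic factor of the family, rose from 44.7 ± 1.92 to 88.7 ± 6.18 FPKM (log2 fold change 1.11 ± 0.08, adjusted p = 4.31e-09), and Vegfc, a lymphatic growth factor, fell from 15.7 ± 1.69 to 6.02 ± 0.338 FPKM (-1.27 ± 0.10, adjusted p = 1.42e-08). The macrophage and leukocyte list summed to 5 to 8.98 FPKM per sample, with Cd14 its most abundant gene.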
